A study of Mus musculus with 141 samples.

Results

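RNA-seq levels of 34 genes of glutathione metabolism were described in liver, lung and kidney of the Collaborative Cross (CC), a family of inbred mouse strains that each carry a different mixture of the genomes of the same founders. The genes are 34 of the 24423 genes in each file, were chosen by symbol for their role, and were all found. They comprise 5 genes of glutathione synthesis, recycling and breakdown, 20 cytosolic, mitochondrial and related glutathione S-transferases, 3 membrane-bound transferases and 6 glutathione peroxidases. The samples were 3 groups of 47 libraries, with 1 male mouse of 8 to 12 weeks from each of 47 CC strains giving whole liver, whole lung and kidney. All mice shared the NTP 2000 diet and exposure to clean air in chambers before tissue collection. Because each strain was 1 mouse, a difference between strains and a difference between single mice cannot be told apart.

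Glutathione is a small thiol peptide that cells hold in large amounts. It is built by glutamate-cysteine ligase and glutathione synthetase, kept reduced by glutathione reductase, and taken apart outside the cell by gamma-glutamyl transferase. Glutathione S-transferases join it to reactive molecules, which are then exported, and glutathione peroxidases use it to reduce hydrogen peroxide and lipid peroxides. Liver is known for conjugation of foreign compounds, kidney for breakdown and reuse of glutathione, and lung for defence against inhaled oxidants.

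Livers had 1738046 to 42158454 counts in total, lungs 2829104 to 17585682 and kidneys 3046695 to 15028553, so low genes were measured least well in the shallowest livers. All libraries of each tissue were most like another library of the same tissue. The summed level of hepatocyte markers lay between 46646 and 168757 scaled CPM (counts scaled to the library total and its TMM factor, a trimmed mean of M-values) in liver and at most at 913 elsewhere, alveolar type 2 markers between 2584 and 5954 CPM in lung and at most at 73.1 elsewhere, and proximal tubule markers between 5500 and 14822 CPM in kidney and at most at 554 elsewhere. Markers of other cells were present too, with cardiac muscle at 39.9 to 327 CPM in lung and adipocytes at up to 481 CPM in kidney. In these bulk samples, fewer cells of a type and less RNA per cell cannot be told apart.

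Many members lie in clusters of closely related genes. On chromosome 3 the order along build NCBIM37 was Gstm5, Gstm7, Gstm6, Gstm3, Gstm2, Gstm1 and Gstm4, from position 107698739 to 107847812. Gstm6 and Gstm3 overlap by 1417 bases on the same strand. The theta genes Gstt3, Gstt1 and Gstt2 follow each other on chromosome 10 between 75236860 and 75297626, and Gstp1 and Gstp2 are 2369 bases apart on chromosome 19. Since the authors counted reads that aligned to 1 place, the share of each gene's 50-base windows found once in the genome bounds what could be counted. That share was 10.2% for Gsta1, 29.6% for Gstp2, 32.2% for Gstp1 and 34.6% for Gsta2, and 69.9% to 90.1% for Gstm2, Gstm1, Gstt3, Gpx2, Gstm3 and Gstm6, with 51.8% for Gpx4. The share of Gstt3 was 25.5% for the transcript with the lowest value. Levels of these genes are uncertain.

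Sequences upstream of a listed start of Gstm7, Gstm3 and Gstm2 are shown because these neighbours split the livers, as described below. That of Gclm is shown because it holds the motif TGACNNNGC, the core letters of the antioxidant response element bound by Nfe2l2. The windows are the 250 bases before a RefSeq start (GRCm38.p6), written 5′ to 3′ on the gene's strand, with any match to the motif on either strand in capitals.
Gstm7, chr3:107931615-107931864, reverse strand: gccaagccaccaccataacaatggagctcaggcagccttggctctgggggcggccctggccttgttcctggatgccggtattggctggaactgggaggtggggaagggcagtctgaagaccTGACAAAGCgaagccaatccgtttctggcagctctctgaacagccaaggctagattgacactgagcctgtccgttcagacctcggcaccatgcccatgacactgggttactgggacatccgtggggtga
Gstm3, chr3:107969175-107969424, reverse strand: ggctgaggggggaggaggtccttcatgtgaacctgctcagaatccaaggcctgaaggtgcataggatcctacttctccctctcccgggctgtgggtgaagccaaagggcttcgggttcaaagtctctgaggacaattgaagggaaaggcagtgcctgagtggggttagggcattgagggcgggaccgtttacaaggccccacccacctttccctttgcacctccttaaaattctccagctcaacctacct
Gstm2, chr3:107986421-107986670, reverse strand: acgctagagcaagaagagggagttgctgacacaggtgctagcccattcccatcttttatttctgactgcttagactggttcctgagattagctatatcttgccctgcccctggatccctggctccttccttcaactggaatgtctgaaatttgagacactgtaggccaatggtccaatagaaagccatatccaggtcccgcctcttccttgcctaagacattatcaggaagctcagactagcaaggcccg
Gclm, chr3:122245307-122245556, forward strand: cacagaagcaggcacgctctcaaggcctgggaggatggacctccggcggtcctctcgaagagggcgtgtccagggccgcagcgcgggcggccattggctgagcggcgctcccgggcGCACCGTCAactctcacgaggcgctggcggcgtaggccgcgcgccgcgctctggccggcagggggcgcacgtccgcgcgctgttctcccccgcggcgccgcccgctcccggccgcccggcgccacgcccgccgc

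Windows were found for 30 of the 34 members. The motif occurred in 7 of their 45 windows, belonging to 6 genes (Gclm, Ggt1, Gsta3, Gstm5, Gstm7 and Mgst1), and in 10.2% of all 32851 windows of the same length. The window of Gstm7 shown belongs to the second of its 2 listed starts. The window of the first start (chr3:107931818-107932067) held no match. Most of the window shown, with its match, lies past that first start. For Gstm7 the match starts 129 bases before the second start, and for Gclm 134 bases before its start.

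Levels within a tissue were compared between genes as TPM (transcript share of a library, corrected for length). The members together made up 9601 TPM in the median liver, 3956 in the median kidney and 2726 in the median lung. With TMM-scaled TPM the sum was 15415 in liver and 1673 in lung. In liver the 5 highest members carried 87.5% of the members' summed medians. The membrane transferase Mgst1 led liver with 1526 TPM in the lowest, 6042 in the median and 9656 in the highest library, and was also highest in lung, with 136, 639 and 996 TPM. In kidney it stood at 32.8, 95.1 and 233 TPM, so that no liver came near the kidney range.

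Gstm1, a major mu-class transferase, was the highest member in kidney and the second highest in liver and lung, at median TPM of 878, 1129 and 496. In kidney the next members were Gpx3, the secreted plasma peroxidase, with 4.01, 487 and 837 TPM in the lowest, median and highest library, and then Gstm5 with a median of 286, Mgst3 with 259, and the modifier and catalytic subunits of glutamate-cysteine ligase, Gclm with 248 and Gclc with 240. In liver Gstp1, the pi-class transferase, followed at 680 TPM, then Gstt1 at 307 and the mitochondrial transferase Gstk1 at 225. In lung the members after Gstm1 were Gstm2 at 241, Gsta4, which acts on lipid aldehydes, at 201, and Gsto1 at 162 TPM.

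**Figure D1:**
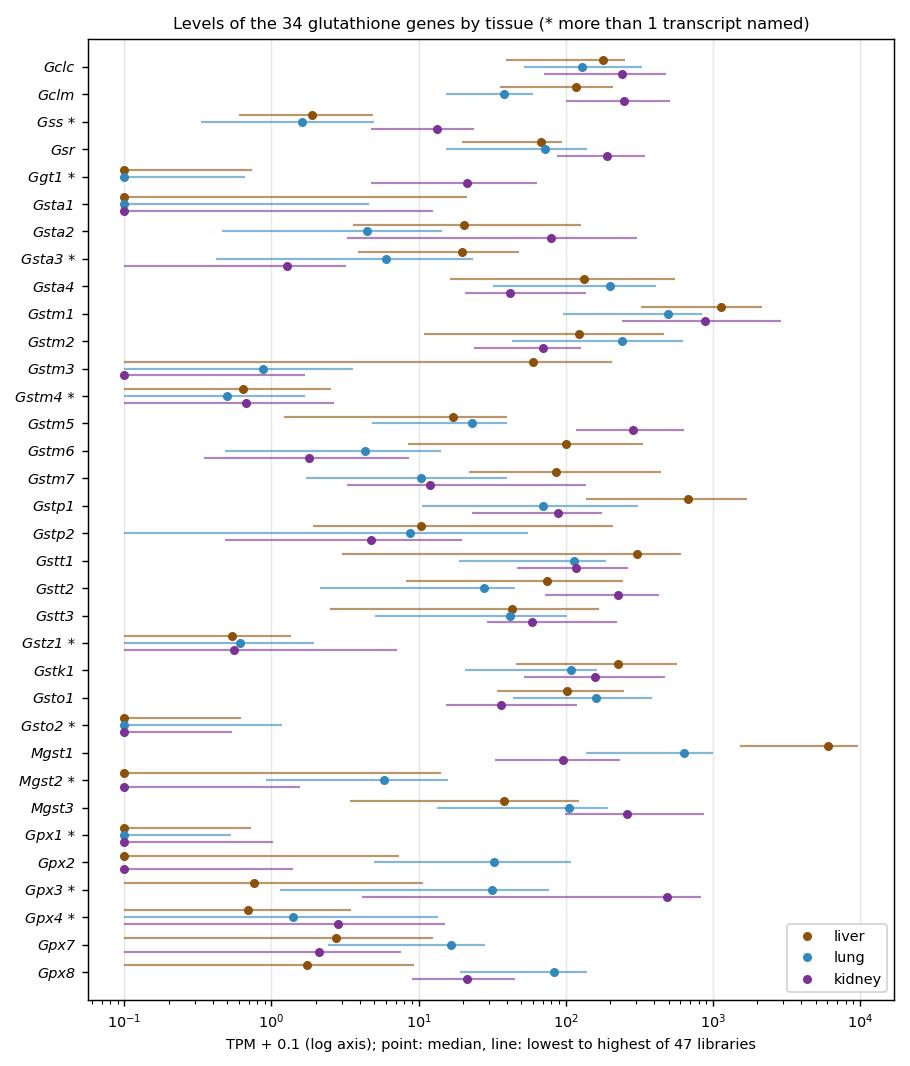
TPM of each of the 34 genes in liver, lung and kidney on a log axis, with 0.1 added. Points mark the median of 47 libraries and lines run from the lowest to the highest library. The median point of Mgst1 in liver, at 6042 TPM, lies to the right of every other median point. Stars mark the 10 genes with several named transcripts.

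The low end of the list has a technical limit that is visible in the files. For 10 members (Gss, Ggt1, Gsta3, Gstm4, Gstz1, Gsto2, Mgst2, Gpx1, Gpx3 and Gpx4) several transcripts are named, and the median over these genes of the median count was 2 for livers and 3.5 for both lungs and kidneys, against 368.5, 178 and 200 for the 24 members with 1 named transcript. Over all genes the same medians were 1, 3 and 1 for 6112 genes with several transcripts and 2, 17 and 6 for 18311 genes with 1. Gpx1, the widespread cytosolic peroxidase, was listed at 0 TPM in the median library of all 3 tissues and at most at 0.92. Gpx4, which reduces lipid peroxides in membranes, reached a median of 2.73 TPM in kidney. Levels of these 10 genes are therefore given as listed, and how many of their reads went uncounted was not tested.

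Differences between tissues were fitted on counts scaled by TMM, with the strain as a block, over the 12127 genes that exceeded 1 CPM in 30% of the libraries or more. A gene was called at a q of at most 0.1 and a log2 fold change of at least 1 in size. Of the 34 members, 26 passed this filter. Gsta1, Gstm3, Gstm4, Gstz1, Gsto2, Mgst2, Gpx1 and Gpx4 did not. The filter can keep genes high in only 1 tissue, but it left out Gstm3, which was high in part of the livers. The calls therefore describe the 26 genes and not all members.

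Between liver and lung, 17 of the 26 members were higher in liver and 3 in lung, where 23.9% and 31% of all tested genes were called in these directions. The ranges of the 47 livers and 47 lungs did not overlap for 11 members, Gpx2 among them, against 26.1% of all tested genes. The 17 were 4 genes of synthesis and recycling and 13 transferases, with none of the omega class (Gsto1 differed by 0.84), and the 3 were peroxidases. The median log2 fold change, liver minus lung, was 1.86 over the tested members and -0.06 over all tested genes.

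The largest differences towards liver were those of the mu-class genes Gstm6 and Gstm7 and of Mgst1. Gstm6 had 7.27, 68.5 and 179 scaled CPM in the lowest, median and highest liver and 0.101, 1.02 and 3.0 in lung. No lung reached the lowest liver, and the log2 fold change was 5.77 ± 0.14 (SE, q = 1.7e-61, higher in 47 of 47 mice). Gstm7 ranged from 36.1 over 64.3 to 305 scaled CPM in liver and from 1.06 over 2.60 to 9.49 in lung, a difference of 4.93 ± 0.10 (q = 2.1e-68). For Mgst1 the values were 1906, 3131 and 4625 in liver and 78.0, 121 and 161 in lung, or 4.74 ± 0.06 (q = 5.3e-87), a 26.8-fold excess with every liver above every lung.

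Gstp1, with 24.7-fold more in liver, Gsta2 with 18.2-fold and Gsta3 with 8.92-fold came next among the tested transferases. Both subunits of glutamate-cysteine ligase were higher in liver, Gclm by 3.07 ± 0.06 (log2, q = 5.8e-71) and Gclc by 1.86 ± 0.09 (q = 5.3e-38). Of the 5 genes of synthesis, recycling and breakdown 4 were called towards liver and none towards lung.

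The 3 members called towards lung were all peroxidases. Of these, Gpx2 passed the filter on low values through lung alone. Its calls towards lung, here and against kidney, follow from that filter. These calls and its ranges without overlap add nothing to the counts. Gpx2, the peroxidase of gut and other epithelia, had 4.08, 6.86 and 21.3 scaled CPM in the lowest, median and highest lung. In 44 of 47 livers and in all 47 kidneys it had at most 3 counts, so the excess in the median lung is given as a bound of at least 12.2-fold over liver and at least 20.4-fold over kidney, measured against 3 counts per library. Gpx8, a peroxidase of the endoplasmic reticulum, had 5.75, 16.4 and 23.2 in lung and 0, 0.965 and 4.68 in liver, a difference of -3.96 ± 0.09 (liver minus lung, q = 3.6e-65). Gpx3 ran from 0.30 over 9.85 to 23.7 in lung and from 0 over 0.725 to 10.6 in liver, or -3.80 ± 0.13 (q = 1.1e-48). It was higher in lung in 45 of 47 mice. Many livers had at most 3 counts of Gpx3, so the size of this difference leans on values near 0.

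Some members did not differ by the call between liver and lung. Gstm2 differed by 0.10 ± 0.13 (log2, q = 0.46) and Mgst3 by 0.17 ± 0.11 (q = 0.13). Ggt1 was at or under 3 counts in 47 livers and 44 lungs, so no fold is given.

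The direction of the smaller differences turned with the scaling. Livers had a median TMM factor of 0.643, lungs of 1.94 and kidneys of 1.32, and a fit on log2(TPM + 1) moved the median of all tested genes to -1.21 for liver minus lung, 0.47 for lung minus kidney and -0.72 for liver minus kidney. In that fit 11 members were called towards liver and 6 towards lung, 8 towards lung and 9 towards kidney, and 8 towards liver and 10 towards kidney. The sign of Gsr turned to -0.028, that of Gsta4 to -0.49, and those of Gstm2, Gstm5, Gsto1, Mgst3 and Ggt1 between liver and lung, as well as those of Gclc and Gstt3 between liver and kidney, turned too. Gstm6, Gstm7, Mgst1, Gstp1, Gpx2, Gpx3 and Gpx8 kept their directions between liver and lung.

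**Figure D2:**
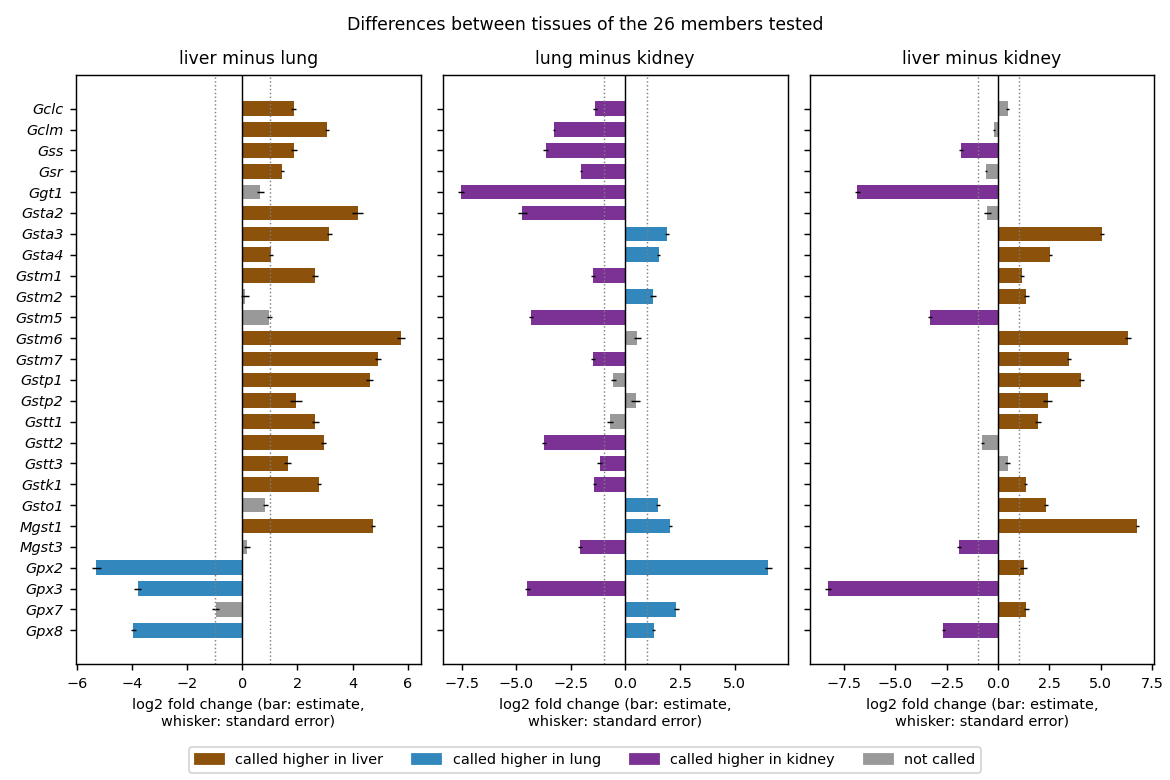
Log2 fold changes of the 26 tested members in the 3 tissue pairs (bars) with standard errors (whiskers), coloured by the tissue in which the gene was called higher. In the liver minus lung panel 17 bars are called to the right and 3, all peroxidases, to the left. The fitted values of Ggt1 and Gpx2 depend on counts at or near 0 in 2 of the 3 tissues.

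Between lung and kidney, 14 of the 26 members were higher in kidney and 8 in lung, with 20.6% and 25.5% of all tested genes called in these directions. For 7 members, Gpx2 and Ggt1 among them, the ranges did not overlap, against 22.6% of all tested genes. The 5 genes of synthesis, recycling and breakdown were called towards kidney, Ggt1 among them. Ggt1, the gamma-glutamyl transferase of the proximal tubule brush border, had 5.48, 12.5 and 35 scaled CPM in kidney, which in the median kidney is at least 55.9-fold over lung and at least 22.2-fold over liver against the 3-count limit. Ggt1 passed the filter on low values through kidney alone, so its calls towards kidney in both pairs follow from that filter. These calls and its ranges without overlap add nothing to the counts.

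Gclm differed by -3.26 ± 0.06 (lung minus kidney, q = 3.8e-73) and glutathione synthetase, Gss, by -3.66 ± 0.10 (q = 2.3e-56), the latter as listed and with at most 3 counts in 9 lungs. Gsta2, an alpha-class transferase, had 0.758, 22.1 and 69.5 scaled CPM in kidney and 0.0721, 0.828 and 2.27 in lung, a difference of -4.72 ± 0.20 (q = 8.2e-42). Kidney and lung ranges of Gsta2 overlapped, although each of the 47 mice had more in kidney. Gpx3 had 1.85, 229 and 370 in kidney, or -4.49 ± 0.10 (q = 4.7e-64) against lung, and the lowest kidney stood far below the next, as described below.

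Towards lung the largest differences were those of Gpx2, given above as a bound, Gpx7 and Mgst1. Gpx7, a peroxidase of the endoplasmic reticulum, had 2.39, 4.05 and 5.86 scaled CPM in lung and 0, 0.787 and 3.11 in kidney, or 2.33 ± 0.12 (q = 9.1e-34), and was higher in lung in 47 of 47 mice. Mgst1 was higher in lung by 2.05 ± 0.06 (q = 3.1e-53, 4.13-fold) with no overlap.

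Between liver and kidney, 14 of the 26 members were higher in liver and 6 in kidney, against 15.6% and 20.8% of all tested genes. The ranges did not overlap for 7 members, Ggt1 among them, against 13.2%. Of the 14, 1 (Gpx2) was at or under 3 counts in 44 livers and all kidneys, so its call carries no size. Among the tested members the largest difference was that of Mgst1. Mgst1 was 111-fold higher in liver, at 6.79 ± 0.06 (log2, q = 6.9e-100), with every liver above every kidney. Gstm3, which was not tested, had at most 3 counts in 46 kidneys. Its median liver was at least 124-fold over kidney against the 3-count limit, although the ranges overlapped. Gstm6 differed by 6.32 ± 0.15 (q = 3.5e-62), with 0.0789, 0.678 and 2.36 scaled CPM in kidney. Gsta3, an alpha-class transferase, differed by 5.06 ± 0.10 (q = 2.4e-71), from 2.95, 17.5 and 38.7 in liver to 0, 0.511 and 1.99 in kidney, where 19 libraries had at most 3 counts.

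Towards kidney stood Gpx3, Ggt1 and Gstm5. The difference of Gpx3 was -8.29 ± 0.14 (liver minus kidney, q = 5.9e-78), although 23 livers had at most 3 counts, so its size leans on values near 0. Gstm5, a mu-class gene at the edge of its cluster, had 33.6, 83.9 and 136 scaled CPM in kidney and 0.972, 9.04 and 20.8 in liver. This difference of -3.33 ± 0.09 (q = 9.6e-58) ran against that of its neighbours Gstm7 (3.44 ± 0.10, q = 7.8e-55) and Gstm6. Neither subunit of glutamate-cysteine ligase was called, with Gclc at 0.46 ± 0.09 (q = 1.2e-06) and Gclm at -0.19 ± 0.06 (q = 0.0025).

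Genes around the members in the pathway were counted in lists chosen with earlier results of these data known, and are therefore a description. Of 16 tested genes of the gamma-glutamyl cycle and cysteine supply, 10 were higher in liver and 4 in lung, 3 in lung and 9 in kidney, and 5 in liver and 3 in kidney, for the 3 pairs in the same order. The shares of all tested genes to set beside these and the following lists are 23.9% and 31%, 25.5% and 20.6%, and 15.6% and 20.8%, in that order. Cth and Cbs, the enzymes that make cysteine from methionine, were higher in liver than in lung, Cth by 7.61 and Cbs at least 56.4-fold, given as a bound because the median lung was under 3 counts. Dpep1, a dipeptidase that splits cysteinylglycine, differed by -5.41, and Slc7a11, the cystine carrier, was at least 8.74-fold higher in lung, against a median liver under 3 counts. Against kidney, Slc7a11 (3.20) and Chac1 (2.04), which cleaves glutathione in the cytosol, were higher in lung, and Nat8 (-7.92), which finishes mercapturic acids, and Cth (-5.64) were lower. Between liver and kidney, Cdo1 (3.86), the cysteine dioxygenase, and Chac1 (2.52) stood towards liver and Dpep1 (-5.85) and Nat8 (-3.76) towards kidney. Beside these bounds, the numbers are log2 fold changes, the first named tissue minus the second.

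Of 15 other tested glutathione-dependent enzymes, 9 were higher in liver and 4 in lung, 2 in lung and 9 in kidney, and 2 in liver and 4 in kidney. Glo1, the first enzyme of methylglyoxal removal, differed by 3.62 from lung and 2.57 from kidney in favour of liver. Its partner Hagh was at least 9.63-fold higher in liver than in lung, where the median was under 3 counts, and differed by 1.28 from kidney. Clic5 (-5.83) and the prostaglandin E synthase Ptges (-3.99) stood towards lung against liver, and Clic5 (2.67) and Clic4 (1.10) towards lung against kidney. The peroxidase Gpx6 was at least 52.8-fold higher in kidney than in lung and at least 20.9-fold higher than in liver, both with medians under 3 counts. Gpx6 would not have passed the filter on low values without kidney, so its calls towards kidney add nothing to the counts. Ethe1 differed by -3.85 between lung and kidney, and Ptges by -3.58 between liver and kidney.

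Of 6 tested carriers of the ABC family that export conjugates, 4 were higher in liver and 2 in lung, 2 in lung and 3 in kidney, and 3 each in liver and kidney. Abcc2, the canalicular carrier of glutathione conjugates, differed by 9.57 between liver and lung and by -8.24 between lung and kidney, and Abcc6 by 9.04 and -4.35. Abcc1 (-3.23) and Abcc5 (-3.17) stood towards lung against liver, Abcc3 (3.77) and Abcc5 (1.09) towards lung against kidney, Abcc3 (6.11) and Abcc6 (4.69) towards liver against kidney, and Abcc1 (-2.40) and Abcc5 (-2.09) the other way.

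Thioredoxin, peroxiredoxin and other antioxidant genes gave 11 of 18 towards liver and 2 towards lung, 1 towards lung and 11 towards kidney, and 4 towards each of liver and kidney. Catalase, Cat, differed by 4.44 between liver and lung and 2.28 between liver and kidney, and Prdx4 by 2.89 and 3.33. Sod3 (-1.95) and G6pdx (-1.55) were lower in liver than in lung, and Sod3 (-2.89) and Prdx5 (-2.01) lower in liver than in kidney. Lung exceeded kidney in Prdx6 (1.69) and fell short in Prdx5 (-4.42) and Prdx3 (-2.48). Of 5 tested regulators of the Nfe2l2 system, 1 stood towards liver (Mafg, 1.28) and 1 towards lung (Mafk, -1.13), and Keap1 (1.04) was higher in liver than in kidney. Between lung and kidney limma called 0 of the 5, edgeR 0 and DESeq2 1, although all 5 had an unadjusted p under 0.05, since the largest log2 fold change in limma was 0.88 in size.

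Strain differences were then described in each tissue. The strain term of the fit, which tests all strains over the 3 tissues together, was called at a q of at most 0.1 for 19 of the 26 members and for 58.9% of all tested genes. The smallest q were those of Gstm7 (2.4e-26), Gpx3 (5.9e-15), Gstm6 (5.1e-13) and Gsta3 (1.9e-11). Gclc, Gclm, Gstm1, Gstt3, Gpx2, Gpx7 and Gpx8 were not called. The SD of log2 CPM across strains had a median over the tested members of 0.84 in liver, 0.48 in lung and 0.57 in kidney, and over all tested genes of 0.52, 0.38 and 0.41. Within liver the steadiest member was Gsr, glutathione reductase, with an SD of 0.18. Among members with a mean of at least 1 CPM the most variable were Gstm3 (3.07), Gstt1 (1.42) and Gstm2 (1.41) in liver, Gstp2 (1.12), Gstm6 (0.92) and Gsta3 (0.90) in lung, and Gstm7 (1.45), Gsta2 (1.35) and Gpx3 (1.07) in kidney. Without CC036, described below, the SD of Gpx3 in kidney was 0.38, rank 19 of 22 members, and Gstp2 (0.98) was the third.

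In liver the mu-class cluster divided the strains. Gstm3 ranged from 0 to 125 scaled CPM with a median of 41.8. In 13 strains (CC004, CC006, CC012, CC015, CC020, CC032, CC038, CC042, CC045, CC049, CC059, CC062 and CC068) it was at most 1.70, and in the other 34 it was at least 3.73. The same 13 livers had the highest Gstm7, from 168 to 305 scaled CPM against 36.1 to 156 in the others. They also had the lowest Gstm2, from 8.43 to 29.3 against 45.4 to 225. Of the 13 livers lowest in Gstm6, 12 were among them. For Gstm5 and Gstm1 the overlap was 9 of 13 each. These strains were picked out after the values were seen, so the overlaps are a description without a test.

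Between the ends lay CC029, CC036, CC040, CC023 and CC030. Their Gstm3 was 3.73, 4.43, 6.81, 11.1 and 18 scaled CPM, and their Gstm7 was 111, 135, 115, 99.1 and 156. Gstm2 was high in 4 of them, at 142, 213, 172 and 132, and lower in CC030, at 58.7. Intermediate Gstm3 thus went with intermediate Gstm7 and, outside CC030, with Gstm2 in the upper part of its range.

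**Figure D3:**
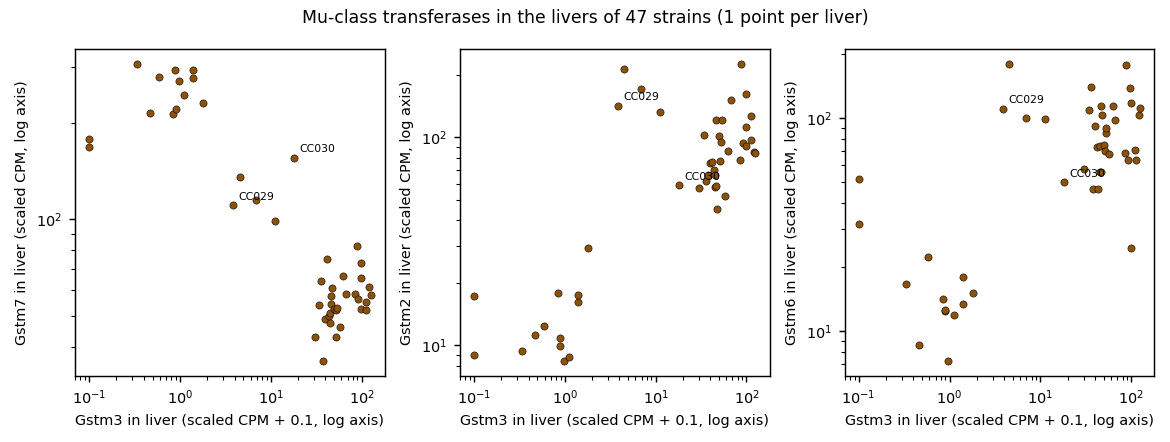
Scaled CPM of Gstm7, Gstm2 and Gstm6 against Gstm3 in the 47 livers, on log axes with 0.1 added to Gstm3. The 13 livers with at most 1.70 CPM of Gstm3 form the group on the left, which is highest in Gstm7 and lowest in Gstm2. CC029 and CC030 are labelled.

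The relation was also computed within the 13 and within the 34 livers, a choice made after seeing the data. The gap between these sets in Gstm3 rests on few counts, with 9 in CC062 below it and 6 in CC029 above it. Gstm7 and Gstm3 had Pearson's r of 0.353 (permutation p = 0.24) and Spearman's rho of 0.360 (p = 0.23) in the 13 livers. In the 34 these were -0.196 (p = 0.27) and -0.128 (p = 0.47). The split was made on Gstm3, which cuts its range in each set. Gstm3 had at most 3 counts in 7 of the 13 livers and at most 13 in the rest. These values therefore cannot show whether the relation holds within a set. Gstm2 and Gstm6 were related in the 34 livers, with r of 0.455 (permutation p = 0.0069) and rho of 0.465 (p = 0.0061), and had r of 0.439 (p = 0.13) in the 13. In the 34 livers Gstm5 and Gstm3 had r of 0.532 (permutation p = 0.0014) and rho of 0.528 (p = 0.0018). Gstm3 and Gstm6 share bases, and how far reads of one were counted for the other was not tested.

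Gstm7 was the member whose strain levels were most alike in the 3 tissues. For each pair of tissues, levels were rank-transformed TMM-scaled TPM, r was taken across the 47 strains with 100000 permutations, and q was adjusted over all genes that passed the filter in both tissues. That filter asked for a sufficient TPM and for no single library set apart from the rest, and the latter left out Gstp2 in liver and Gpx7 in kidney. Gstm7 had r of 0.774 between liver and kidney (rho 0.799), 0.726 between lung and kidney (rho 0.818) and 0.629 between liver and lung (rho 0.694). Each p was 1e-05 by permutation, the smallest the permutations can give, and the q were 0.00047, 0.00057 and 0.00075. Leaving out the 2 most distant strains gave an r of 0.743, 0.738 and 0.625. Within the 34 strains above 3 CPM of Gstm3 in liver, r was 0.615 (permutation p = 0.00012), 0.706 (p = 2e-05) and 0.504 (p = 0.0025), and within the 13 others it was 0.20 (p = 0.51), -0.045 (p = 0.88) and -0.150 (p = 0.62). This split, made after seeing the data, also parts the livers by Gstm7 without overlap and so cuts its range in each set. With few strains in the smaller set, these values cannot show whether the agreement differs between the sets.

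Of the 13 strains, 12 were among the 13 highest in kidney Gstm7 and 10 among the 13 highest in lung. CC032 was the exception in kidney, with 221 scaled CPM in liver but 3.66 in kidney and 1.74 in lung. CC030 was similar, with 156, 3.65 and 1.93. Liver therefore ranked these 2 strains high and the other tissues did not.

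Over all members, 8 of 22 were called between liver and lung (12.7% of all 7951 genes), 10 of 24 between lung and kidney (16.8% of 9513) and 8 of 21 between liver and kidney (22.8% of 7975). The median r over the members was 0.220, 0.270 and 0.225, and over all genes 0.133, 0.152 and 0.182. The next members by their mean r over the 3 pairs were Gsta3 (0.457), Gstk1 (0.447), Gstm2 (0.443), Gsta4 (0.409) and Gstt1 (0.388).

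Gsta3 had r of 0.569 between liver and lung (permutation p = 2e-05, q = 0.0012), 0.428 between liver and kidney (q = 0.025) and 0.374 between lung and kidney (q = 0.068). Gstk1 had 0.587 between liver and kidney (q = 0.0010) and 0.527 between lung and kidney (q = 0.0038), and 0.227 (q = 0.37) between liver and lung. Gstm2 was called in all pairs, with 0.464 (q = 0.019) for liver and lung, 0.437 (q = 0.025) for lung and kidney and 0.429 (q = 0.023) for liver and kidney. Gsta4 (0.542, q = 0.0015) and Gstt1 (0.537, q = 0.0031) were called between liver and kidney, and Gstt1 also between lung and kidney (0.378, q = 0.065). Spearman's rho for these called pairs lay between 0.382 and 0.657. Without the 2 farthest strains the lung and kidney values of Gstm2 (0.348, q = 0.12) and Gstt1 (0.297, q = 0.21) were no longer called. On TPM without TMM scaling, calls were lost for Gstm2 between liver and lung (0.413, q = 0.17) and liver and kidney (0.240, q = 0.26), for Gsta3 between liver and lung (0.359, q = 0.37) and lung and kidney (0.271, q = 0.41), for Gstk1 between lung and kidney (0.394, q = 0.12) and for Gstt1 there (0.297, q = 0.34).

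Other members were alike in 1 pair only by the call. Between lung and kidney these were Gstp1 (0.611, q = 0.00057), Gstt3 (0.607, q = 0.0012), Gstp2 (0.555, q = 0.0023), Gstt2 (0.368, q = 0.076) and Gss (0.364, q = 0.080). Gstm5 (0.557, q = 0.0029), Gsto1 (0.466, q = 0.018) and Gstm1 (0.396, q = 0.063) were called between liver and lung, and Mgst3 (0.638, q = 0.00047) between liver and kidney. The 2 negative values past the threshold were those of Gsta2 between liver and lung (-0.460, q = 0.021) and Gclm between liver and kidney (-0.361, q = 0.068). Gclm was positively related between liver and lung (0.533, q = 0.0047). Differences between these correlations were not tested. Without the 2 farthest strains Gsta2 (-0.378, q = 0.11), Gstm1 (0.338, q = 0.17), Gstt2 (0.275, q = 0.26) and Gss (0.210, q = 0.44) lost their calls. On TPM without TMM scaling, Gsto1 (0.027, q = 0.98), Gclm (0.156, q = 0.87) and Gstm1 (0.353, q = 0.39) lost theirs between liver and lung, Gss (0.276, q = 0.40) and Gstt2 (0.379, q = 0.15) theirs between lung and kidney, and Gclm stood at 0.016 (q = 0.94) between liver and kidney.

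**Figure D4:**
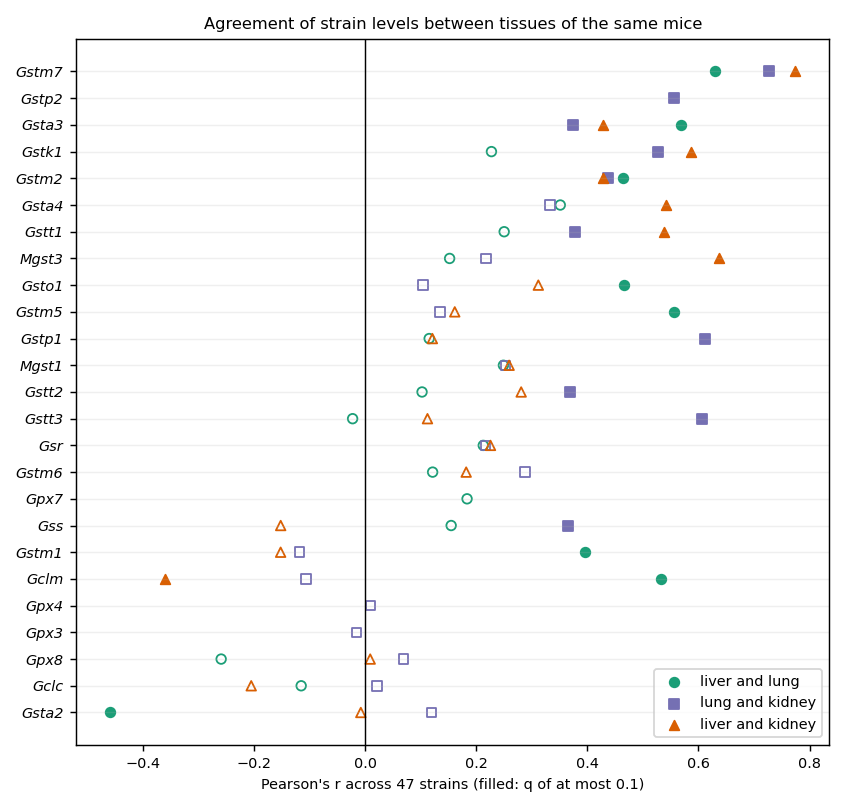
Pearson's r across 47 strains between tissues of the same mice, for the members that passed the filter in both tissues, ordered by their mean. Filled symbols have a q of at most 0.1. Gstm7 lies at the top with 0.629 to 0.774, and Gsta2 at the bottom reaches -0.460 between liver and lung.

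Single strains stood apart in other members. Gstt1, a theta-class transferase, had 3.36 scaled CPM in the liver of CC038, 5.12 in CC025 and 5.99 in CC017, against 36.5 to 290 in the other 44 livers and a median of 185. In lung the same mice had 18.3, 26.4 and 22.2, within the range of 7.83 to 39.1 of the others, and in kidney 34.6, 28.5 and 43.2, within 14.2 to 72.7. Low Gstt1 in these 3 strains was therefore seen in liver only, of the 3 tissues measured.

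Its neighbour Gstt3, which lies 2398 bases away, was highest in kidney in the same 3 strains, at 81.5 in CC038, 85.7 in CC025 and 102 in CC017, against at most 72.8 in the others. In lung Gstt3 was highest in CC025 (36.8) and CC038 (34.1) and 5th highest in CC017 (26.2). In liver CC038 had the lowest Gstt3, at 5.05, and the lowest Gstt2, at 12.4. Across the livers, Gstt3 (r = 0.617, q = 0.029) and Gstt2 (r = 0.570, q = 0.029) were called against Gstt1, an index chosen after its values were seen, beside 0.197% of all genes, with rho of 0.505 and 0.539. Each had a permutation p of 2e-05 for r. Without the 2 farthest strains r fell to 0.521 (q = 0.17) and 0.436 (q = 0.28), and neither was called. The part that reads shared by Gstt3 and its copies have in these values was not tested.

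Gpx3 was nearly absent in CC036. Its kidney held 1.85 scaled CPM, from 22 counts, against 125 to 370 in the other 46 kidneys. The lung of the same mouse had 0.30 against 4.03 to 23.7 elsewhere. Its liver was listed at 0, as were those of CC005 and CC039, and was the shallowest library, with 1738046 counts in total. This mouse was lowest in both tissues where the gene was otherwise well measured. Without CC036 the strain term of Gpx3 had a q of 0.21 and was no longer called (18 of the 26 members were called then), so its call above rested on this mouse.

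**Figure D5:**
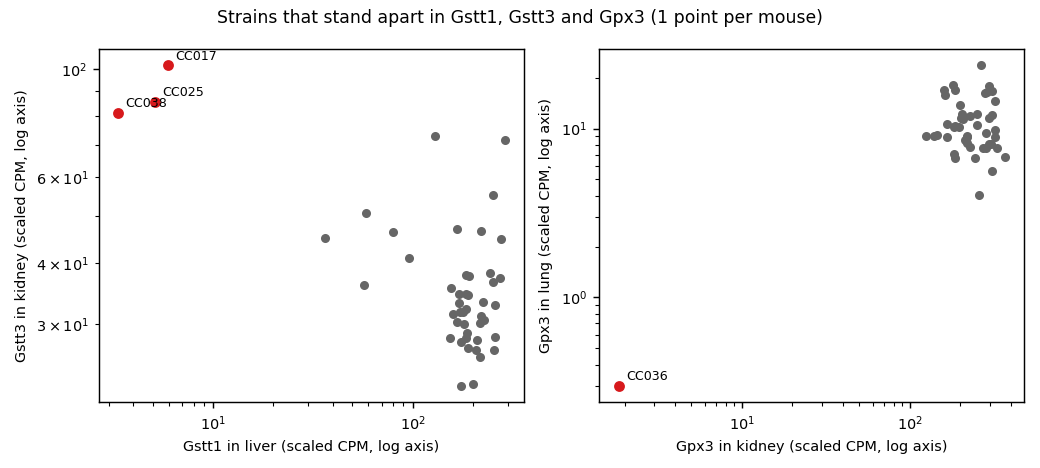
Scaled CPM on log axes, with 1 point per mouse. On the left, Gstt1 in liver is plotted against Gstt3 in kidney, with CC017, CC025 and CC038 in red at the lowest Gstt1 (at most 5.99) and the highest Gstt3 (at least 81.5). On the right, Gpx3 in kidney is plotted against Gpx3 in lung, with CC036 in red at the lowest value of both.

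Gstp2 was highest in the liver of CC030, at 87.4 scaled CPM against at most 29.1 in the others, while Gstp1 in that liver stood at 322, the median. In kidney Gstp2 of CC030 was 4th lowest. Gsta1 had at most 3 counts in 43 livers, 46 lungs and 46 kidneys. The exceptions included CC045, with 10.6 scaled CPM in liver and 2.70 in kidney, and CC042 with 0.705 in lung. Both pairs are near-copies with few unique windows, as given above.

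Members were also set against indices of cell types and of the Nfe2l2 response within each tissue, with q over all genes of the tissue. The club cell index (Scgb1a1, Scgb3a2 and Cyp2f2) in lung was related to Gstm1 (r = 0.512, q = 0.025), Gstm2 (r = 0.483, q = 0.041) and Mgst1 (r = 0.448, q = 0.083), 3 of 27 members beside 2.06% of all genes. Their permutation p were 0.0002, 0.00048 and 0.0015, and rho was 0.481, 0.436 and 0.421. Club cells of the airway are known for xenobiotic metabolism. The proximal tubule index (Slc34a1, Lrp2, Cubn and Slc5a2) in kidney was related to Ggt1 (r = 0.533, q = 0.011), Gstt2 (r = 0.504, q = 0.017) and Gstm5 (r = 0.411, q = 0.057) and inversely to Gstm2 (r = -0.406, q = 0.061), 4 of 25 members beside 11.9% of all genes. Here rho was 0.525, 0.497, 0.369 and -0.407. On TPM without TMM scaling the sign of Gstm2 turned (r = 0.318), and the calls against all indices rose from 8 to 277, so these relations depend on the scaling. Without the 2 farthest strains Gstm2 kept its call against the proximal tubule index (r = -0.513, q = 0.056). The other 6 calls were lost, with r of 0.442 for Gstm1, 0.358 for Gstm2 and 0.416 for Mgst1 in lung and 0.449 for Ggt1, 0.367 for Gstt2 and 0.458 for Gstm5 in kidney.

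Gstm2 followed Gstm1 in lung (r = 0.661, permutation p = 1e-05, q = 0.060, rho = 0.685, 0.0417% of all genes called), a call lost without the 2 farthest strains (r = 0.672, q = 0.17), and had r of 0.569 in liver (q = 0.15, 0.0116% of all genes). In kidney Gstm1 was not called against any member as the index (0 of 24, 0.0% of all genes), while with Gstm7 as the index, chosen after its values were seen, Gstm1 had r of 0.656 (permutation p = 1e-05, q = 0.035, rho = 0.697, 0.0383% of genes). The pair is the same in both cases and its q differs because each index was adjusted over its own set of genes. With Gstm7 as the index no member was called in liver or lung (0.0% of all genes in each), and 4 and 2 members had a permutation p under 0.05. Gstm3 in liver was called with Gstm5, Gstm2 and Gstm1 (0.0464% of genes) over all livers. Within the sets divided by Gstm3 its range is cut, and in the 13 livers it is near 0 counts, as given above. Within the 34 and the 13 livers r was 0.532 (permutation p = 0.0014) and -0.145 (p = 0.63) for Gstm5, 0.021 (p = 0.91) and 0.291 (p = 0.33) for Gstm2, and 0.346 (p = 0.046) and 0.119 (p = 0.70) for Gstm1.

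No member was called against the index of Nfe2l2 targets (Nqo1, Srxn1 and Txnrd1) in any tissue, by permutation with Benjamini-Hochberg adjustment, and 1, 6 and 3 members had a permutation p under 0.05 in liver, lung and kidney. Of all genes, 0.0%, 0.0% and 0.0861% were called. The highest r was that of Gpx2 in lung (0.489, q = 0.20). Nor was any member called against the pericentral index in liver (0.278% of genes, 5 members with p under 0.05), against Cyp2b10 in liver (0.0116%, 1 member), the cardiac muscle index in lung (1.38%, 0 members), the medullary and distal tubule index in kidney (0.651%, 2 members), or Gclc in liver, lung and kidney (0.8%, 0.0% and 0.134%, with 0, 4 and 2 members). Against library depth, 0 members were called in any tissue (0.0% of genes in each), and 6, 2 and 0 had p under 0.05. With Gstt3 as the index, Gstt2 (r = 0.543, q = 0.021) and Gclm (r = -0.456, q = 0.051) were called in lung (6.88% of genes), with permutation p of 9e-05 and 0.0013, and none in kidney (0.144%, 5 members with p under 0.05). On TPM without TMM scaling the sign of Gclm turned (r = 0.477). Neither lung value kept its call without the 2 farthest strains.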

How the data were processed

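RNA-seq was measured in 141 libraries, 47 each of liver, lung and kidney, and samples were grouped by the tissue in the labels. The authors aligned 50-base single-end reads of ribosome-depleted total RNA to strain-specific genomes built on mm9 with STAR 2.5.3a and estimated abundance with RSEM from uniquely aligned reads. The deposited expected counts, TPM and FPKM are listed per gene. The expected counts were rounded to whole numbers, TPM as deposited by the authors gave levels, and the FPKM deposited by the authors were not used. Sequencing batches were not among the labels used here. The authors had batch as a covariate in their models, and no such term was fitted here. How far the strain differences and the correlations across strains include batch was not tested.

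Counts were fitted with limma 3.58.1 (voom) on TMM factors from edgeR 4.0.16 in R 4.3.3, with strain and tissue as terms, over genes with CPM over 1 in at least 30% of the libraries. A call needed a Benjamini-Hochberg q of at most 0.1 over all tested genes and a log2 fold change of at least 1 in size. The strain term was tested by an F-test in the same fit. Correlations across 47 strains used rank inverse normal TMM-scaled TPM with 100000 two-sided permutations (numpy 2.4.6 in Python 3.11.15), over genes above 1 TPM in 50% or more of a tissue's libraries and with no single library set apart from the others (an exact split of the sorted values into 2 clusters), and q was adjusted over the genes left. Permutation p-values therefore go no lower than 1e-05. Values of at most 3 counts were taken as unresolved, which was a median of 0.562, 0.223 and 0.337 scaled CPM in liver, lung and kidney and covers counting error only. Scripts were tested on simulated data. DESeq2 1.42.0 and other settings served as alternatives.

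Libraries with the same number came from the same mouse, so strain was a block. Deviations from the tissue means correlated within mice with medians of 0.166 (liver and lung), 0.211 (lung and kidney) and 0.173 (liver and kidney), and between mice with -0.0048, -0.0059 and -0.0060. The members and lists were chosen with earlier results of these data known. Full values were given for the 3 members with the largest called difference per direction and tissue pair, the 3 with the largest SD across strains per tissue (mean of at least 1 CPM), the 6 with the largest mean cross-tissue r, and those called against an index. For pathway lists the 2 largest per direction and pair were named. Strains standing apart, the indices Gstm7, Gstm3, Gstt1 and Gstt3, and other members were named after their values were seen. Positions came from NCBIM37 with GENCODE vM1 and promoter windows from RefSeq on GRCm38.p6.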

Additional observations from a re-analysis of the deposited data

How the results depend on the processing

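Counts of called members depended most on the scaling. On log2(TPM + 1) and log2(TPM + 0.1) alike, 11 members were higher in liver and 6 in lung (17 and 3 in the TMM fit), 9 were higher in kidney than in lung (14) and 8 and 10 were higher in liver and in kidney (14 and 6). With no fold change threshold 10 members were higher in kidney than in liver, and the strain term was called for 12 members on log2(TPM + 1) (19). The cause was not tested, but the median of all tested genes moved to -1.21, 0.47 and -0.72 on log2(TPM + 1). Signs turned between liver and lung on log2(TPM + 1) and log2(TPM + 0.1) for Gsr (-0.028 and -0.027), Ggt1 (-0.082 and -0.43), Gsta4 (-0.49 and -0.49), Gstm2 (-1.48 and -1.504), Gstm5 (-0.59 and -0.67), Gsto1 (-0.64 and -0.64) and Mgst3 (-1.41 and -1.44), and between liver and kidney for Gclc (-0.51 and -0.51) and Gstt3 (-0.49 and -0.51). Ggt1 also turned with edgeR's quasi-likelihood test (-0.57) and DESeq2's Wald test (-0.17), Mgst3 with DESeq2's size factors (-0.074) and Wald test (-0.20), and Gstm2 with the size factors (-0.14), the Wald test (-0.082) and no replicate block (-0.12). Without the replicate block 17 members were higher in liver and 4 in lung, and the counts of the other pairs did not move (8 and 14, 14 and 6).

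On TPM without TMM, 3 members were called between liver and lung (8) and 5 between lung and kidney (10), 277 relations with an index were called (8), and 91 with the indices chosen after seeing the data (8). The log2 scale without ranks gave 13 relations with an index. Without the 2 farthest strains 6 members were called between lung and kidney, 2 relations with an index and 4 with the added indices. On TPM without TMM the sign turned for Gclm between liver and kidney (0.016), Gstm2 with the proximal tubule index (0.318) and Gclm with Gstt3 in lung (0.477). On TMM-scaled TPM, Gstm7 against Gstm3 had r of -0.557 over all livers and 0.353 within the 13, where Gstm3 is near 0 counts. Summed TPM moved to 15415 in liver and 1673 in lung with TMM-scaled TPM. Of the fold changes under these alternatives, 627 kept direction and call, 33 lost the call, 17 gained it and 25 reversed. Depth limits genes at or under 3 counts, which include most libraries of Gsta1, Gsto2 and Gpx1.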
